A study of Caenorhabditis elegans with 20 samples.

Results

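Gene expression with and without daf-16 was compared in adult Caenorhabditis elegans that carried the m577 allele of daf-2. The comparison set the 5 arrays of daf-2(m577) against the 5 arrays of daf-16(mgDf50); daf-2(m577), chosen by their titles, and these are 10 of the 20 arrays of the study. Every strain of the study, controls included, also carried glp-4(bn2), so both genotypes shared reduced daf-2 function and that mutation and differed in daf-16. The other 10 arrays held the same pair of genotypes with the allele e1370 in place of m577. Per the labels, synchronized larvae hatched at 20 °C, grew at 15 °C and were moved to 25 °C around the L4 stage, and whole sterile animals were taken as adults of 1 day. Each biological replicate pooled the worms of 8 plates. Because RNA came from whole animals, fewer cells of a type and less RNA per cell cannot be told apart.

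In the worm, insulin-like peptides act on the DAF-2 receptor, and the kinases below it phosphorylate DAF-16, a FOXO transcription factor, and hold it in the cytoplasm. When the receptor is weakened by mutation, DAF-16 enters nuclei, and such animals resist stress and live long in a way that needs daf-16. The allele glp-4(bn2) stops germ cells from multiplying at the restrictive temperature, and it is used to obtain adults without progeny. Differences below are log2 values with daf-16 minus without it, from 5 arrays per genotype. They are called higher or lower where limma, a moderated linear model fitted over all 20 arrays, gave a Benjamini-Hochberg adjusted p under 0.05. The standard error (SE) printed with a difference comes from that fit. The spread behind the SE is estimated over all 20 arrays, e1370 included, so it is not the spread of the m577 arrays alone.

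Before any gene is considered, the arrays of daf-2(m577) differed among themselves more than those of the strain without daf-16. Across probe sets, which are no replicates of each other, the median correlation of an array with the others of its genotype was 0.914 to 0.957 in daf-2(m577) and 0.962 to 0.986 in daf-16(mgDf50); daf-2(m577). Replicate 3 of daf-2(m577) had a mean level of sperm genes of 7.79, against 10.48 to 10.90 on the other 4 arrays of its genotype. Its mean level of oocyte and germ cell genes was the highest of the 10 arrays, at 10.66. Replicate 1 of daf-2(m577) had the narrowest spread of values, with an interquartile range of 1.97 against at least 2.27 on the other 9 arrays. The 3' minus 5' signal of control transcripts, a measure that grows as RNA is broken or incompletely copied, was 1.61, 1.27, 1.33, 1.19 and 1.25 in daf-2(m577). Without daf-16 it was 2.32, 1.75, 1.82, 1.76 and 1.72, so the genotypes did not overlap in this measure, and its part in the differences and that of the genotype cannot be told apart.

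**Figure D1:**
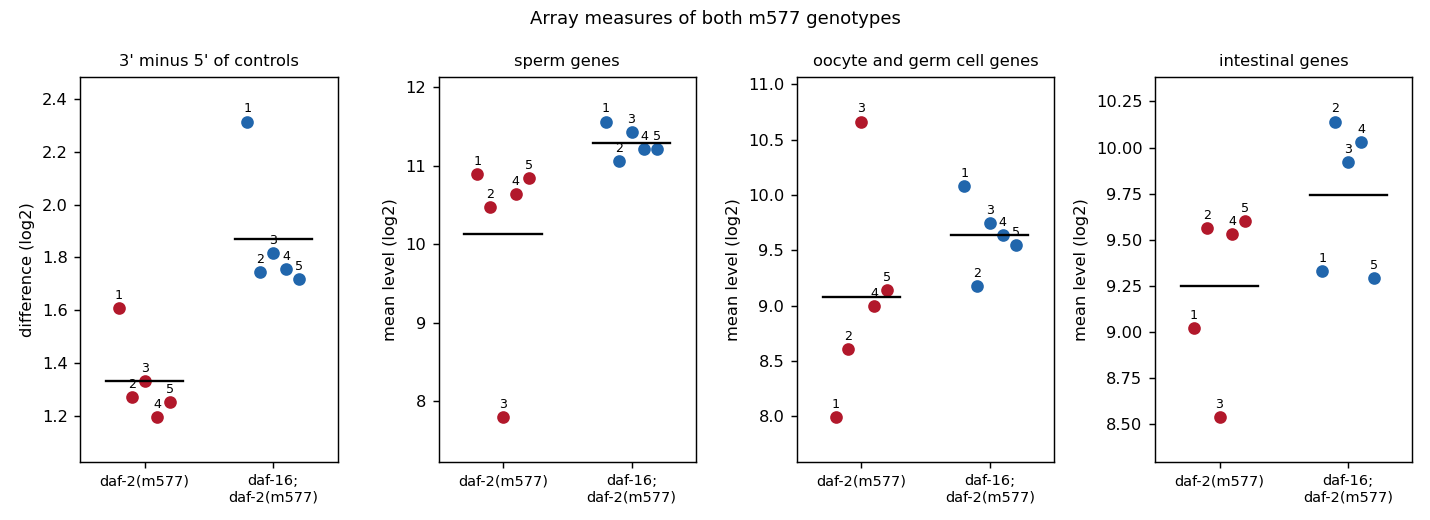
Measures of each array in both m577 genotypes on log2 scales: the mean 3' minus 5' difference of actin, GAPDH and ubiquitin control probe sets, and the mean levels of sperm, oocyte and intestinal genes. Points are single arrays with their replicate numbers and bars are genotype means. The 3' minus 5' values do not overlap between genotypes, and replicate 3 of daf-2(m577) lies apart in sperm genes at 7.79.

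The mutated genes were examined first. For daf-16, probe set 175678_at read 7.00, 6.69, 6.98, 7.10 and 7.15 in daf-2(m577) and 6.17, 6.67, 6.71, 6.58 and 6.03 without daf-16. The genotypes overlapped, and the difference was 0.55 ± 0.27 (adjusted p = 0.391). The remaining daf-16 probe sets differed by 0.85 ± 0.24 (adjusted p = 0.0917) for 181992_s_at, 0.37 ± 0.35 (adjusted p = 0.658) for 188176_s_at and -0.21 ± 0.38 (adjusted p = 0.835) for 175823_s_at. None of the 4 probe sets was called, and the sources used here do not say which of them lie in the segment that mgDf50 removes, so these values cannot check the strain. For daf-2 the 4 probe sets differed by 0.05 to 0.29, none was called, and all had means in the background range. The single probe set of glp-4, a gene that both strains carry in mutant form, read 6.92 ± 0.49 with daf-16 and 7.91 ± 0.49 without it (SD, n = 5), a difference of -0.98 ± 0.38 (adjusted p = 0.263) that was not called.

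Of 22548 probe sets, 404 were called, which is 1.79% of those tested. With daf-16 present 270 were higher (1.2%) and 134 were lower (0.594%). The median difference over all probe sets was 0.03. At least 2-fold differences made up 175 of the higher and 106 of the lower calls, and at least 8-fold differences 16 and 5. All 5 arrays of each genotype lay apart for 246 of the higher and 127 of the lower calls, and for 1502 probe sets in all (6.66%). A mean at or below 6.29, the highest single value of the Bacillus controls that match no worm gene, occurred in 97 of the higher and 32 of the lower calls, whose sizes are limited by background. With the 3' minus 5' signal as a covariate 58 probe sets were called, of which 56 were among the 404. Leaving out replicates 1 and 3 of daf-2(m577) together gave 477 calls, 398 higher and 79 lower, with 277 shared. Leaving out replicate 3 of daf-16(mgDf50); daf-2(m577) gave 257 calls, and leaving out replicate 4 gave 266.

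**Figure D2:**
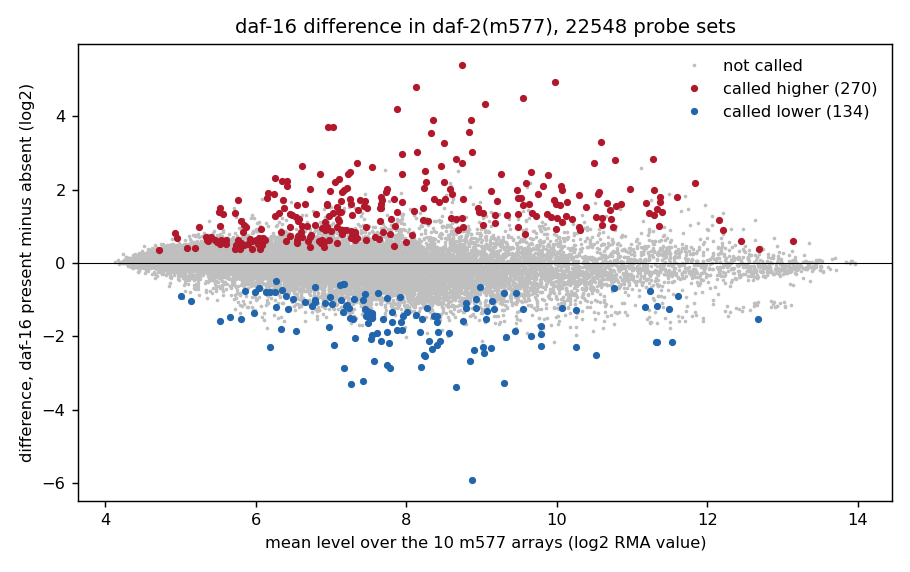
The daf-16 difference in daf-2(m577) (log2, daf-16 present minus absent) for each probe set against its mean level over the 10 m577 arrays (log2 RMA value). Grey points are not called, red points are the 270 called higher and blue points the 134 called lower at a limma adjusted p under 0.05. The lowest point is the probe set of several symbols at -5.91.

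The 12 genes that rose most were, by name, clc-24, clec-61, dod-6, ftn-1, hen-1, nnt-1, scl-20, sod-3, D1086.9, F13D11.4, F15B9.6 and H39E23.3, with differences from 5.40 down to 3.02. They include genes for iron storage, superoxide removal and the mitochondrial supply of reducing power, along with secreted and membrane proteins. Chromosome V holds 5 of them and chromosome X holds 4. None of the 12 was called in the test of the difference between the alleles m577 and e1370.

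The iron storage protein ferritin is encoded by ftn-1. Its levels in daf-2(m577) were 12.10, 12.59, 12.65, 12.37 and 12.45, and without daf-16 they were 6.89, 7.56, 7.30, 7.85 and 7.96. The lowest array with daf-16 thus stood more than 4 log2 units above the highest array without it. The difference was 4.92 ± 0.23, or 30.3-fold (adjusted p = 6.79e-10). For nnt-1, which encodes the mitochondrial transhydrogenase that makes NADPH, the levels were 9.95, 10.70, 10.17, 10.40 and 10.36 with daf-16 and 6.22, 6.39, 6.68, 6.61 and 6.15 in its absence. Arrays of the 2 genotypes were well separated and varied little within each, and the difference was 3.91 ± 0.22, or 15-fold (adjusted p = 4.83e-09). The mitochondrial manganese superoxide dismutase gene sod-3 read 10.66, 10.96, 9.73, 10.73 and 11.03 in daf-2(m577) and 6.69, 7.28, 6.91, 6.93 and 7.50 in the strain without daf-16. Replicate 3 was the lowest of the daf-2(m577) arrays, yet it lay above every array without daf-16. The difference was 3.56 ± 0.25, or 11.8-fold (adjusted p = 1.56e-07).

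F15B9.6 had the largest rise among probe sets with 1 gene symbol. Its levels were 10.50, 11.61, 12.42, 11.31 and 11.34 with daf-16 and 5.99, 6.07, 6.04, 6.14 and 5.95 in its absence, where all 5 arrays were inside the background range. The difference was 5.40 ± 0.45 (adjusted p = 1.33e-06). D1086.9 and H39E23.3 are neighbours on chromosome V and rose by 4.79 ± 0.38 (adjusted p = 6.82e-07) and 4.51 ± 0.40 (adjusted p = 2.93e-06). D1086.9 was near background without daf-16, whereas H39E23.3 read 11.81 ± 0.12 with daf-16 and 7.30 ± 0.50 without it (SD, n = 5). Probe set names that end in s_at or x_at, as that of H39E23.3 does, mark probes that can match related transcripts, so near-identical copies cannot be told apart there.

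Among genes for secreted proteins, scl-20, of the SCP-like family, read 10.49, 10.20, 9.48, 10.23 and 9.43 with daf-16. Without daf-16 it read 5.45, 5.39, 5.60, 5.53 and 6.95, and replicate 5 was the one array above the background range. It rose by 4.18 ± 0.44 (adjusted p = 1.66e-05). The gene hen-1 encodes a secreted protein with an LDL receptor motif that neurons use in integrating sensory signals, and it rose from 5.17 ± 0.41, which is background, to 8.88 ± 0.39 (SD, n = 5), by 3.71 ± 0.37 (adjusted p = 1.01e-05). The C-type lectin gene clec-61 read 9.18, 10.76, 11.45, 9.33 and 9.77 with daf-16 and 6.12, 6.40, 6.59, 6.65 and 7.01 in its absence. Its values spread over more than 2 log2 units within daf-2(m577) but did not overlap with the other genotype, and the difference was 3.54 ± 0.50 (adjusted p = 0.000519).

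The remaining leading rises were those of dod-6, clc-24 and F13D11.4. For dod-6, a gene known as downstream of daf-16, the levels were 12.34, 12.27, 12.59, 12.18 and 11.78 with daf-16 and 7.36, 9.58, 9.85, 10.15 and 7.80 in its absence. In the absence of daf-16, replicates 1 and 5 were lower than the other 3 by more than 1.5 log2 units, and the difference was 3.28 ± 0.47 (adjusted p = 0.000601). The claudin-like gene clc-24, of a family of membrane proteins that includes components of cell junctions, rose from 6.87 ± 0.49 to 10.14 ± 0.19 (SD, n = 5), by 3.27 ± 0.25 (adjusted p = 4.5e-07). F13D11.4 rose by 3.02 ± 0.39 (adjusted p = 0.000237). With the 3' minus 5' signal as a covariate, clec-61, dod-6 and F13D11.4 differed by 2.71, 2.55 and 2.62 (adjusted p = 0.241, 0.25 and 0.101), and the other 9 of the 12 rises were still called.

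**Figure D3:**
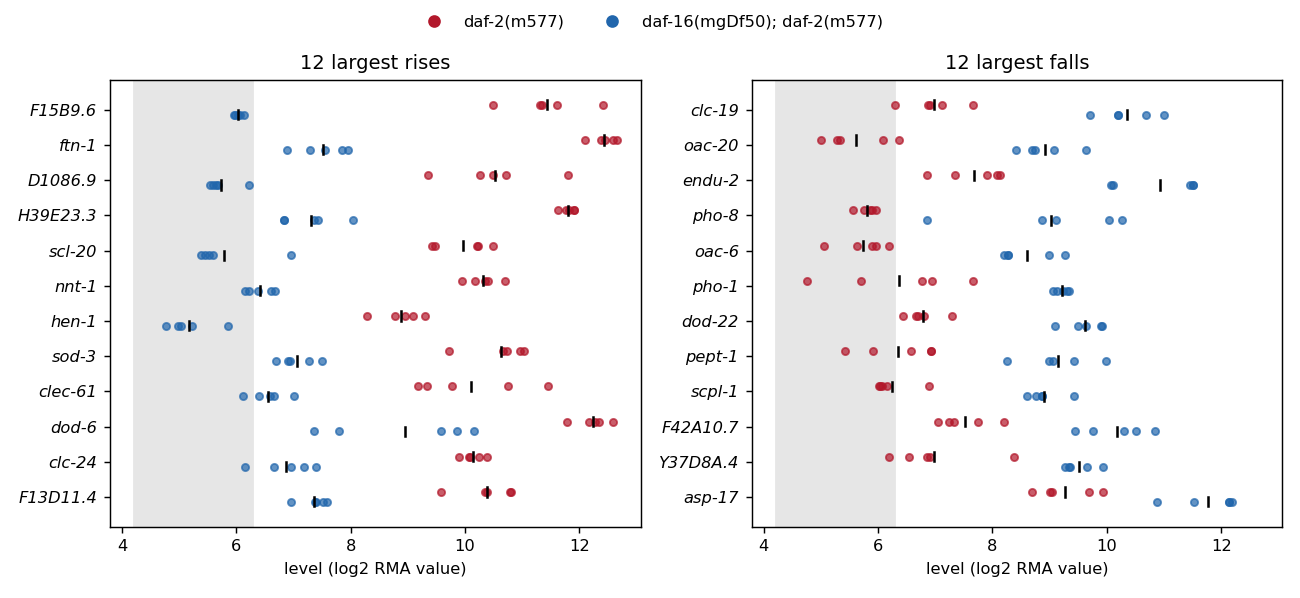
Level on each array (log2 RMA value) of the 12 genes that rose most and the 12 that fell most with daf-16 present in daf-2(m577). Red points are the 5 arrays of daf-2(m577), blue points the 5 arrays of daf-16(mgDf50); daf-2(m577), black ticks are genotype means, and the grey band is the range of Bacillus control values, 4.21 to 6.29. The genes were chosen among those without overlap of the genotypes, so none overlaps by rule.

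The 12 genes that fell most with daf-16 present were clc-19, oac-20, endu-2, pho-8, oac-6, pho-1, dod-22, pept-1, scpl-1, F42A10.7, Y37D8A.4 and asp-17, with differences from -3.38 to -2.51. They include genes for a peptide transporter, acid phosphatases, an aspartyl protease and acyltransferase homologues. The 12 falls were also chosen among probe sets without overlap of arrays. As with the rises, none was called in the test of the difference between alleles, which called 0.177% of all probe sets.

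A second claudin-like gene, clc-19, changed opposite to clc-24. It read 6.97 ± 0.49 with daf-16 and 10.35 ± 0.50 without it (SD, n = 5), with no overlap of arrays, and fell by 3.38 ± 0.42 (adjusted p = 0.000151). The gene endu-2 encodes an endoribonuclease related to the poly(U)-specific enzymes, and it read 7.35, 8.08, 6.86, 7.91 and 8.14 with daf-16 and 10.08, 11.51, 11.46, 11.51 and 10.12 in its absence. Without daf-16, replicates 1 and 5 were the lower ones, as for dod-6, but they stayed above all daf-2(m577) arrays. It fell by 3.27 ± 0.41 (adjusted p = 0.000153) for this probe set, 177368_at. Its other probe set, 177375_at, was not called, at -1.89 ± 0.55 (adjusted p = 0.101). The transporter gene pept-1, which takes up dipeptides and tripeptides in the intestine, read 5.92, 6.93, 5.43, 6.92 and 6.58 with daf-16 and 8.26, 9.99, 9.05, 9.43 and 8.98 in its absence. It fell by 2.79 ± 0.43 (adjusted p = 0.00116), and with the 3' minus 5' signal as a covariate the difference was -3.26 (adjusted p = 0.0511).

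The acid phosphatase gene pho-8 was at background with daf-16, where it read 5.97, 5.75, 5.90, 5.57 and 5.87. Without daf-16 it read 6.86, 10.04, 8.87, 10.27 and 9.10, so that replicate 1 lay well under the other 4 arrays. It fell by 3.22 ± 0.45 (adjusted p = 0.000519). A second acid phosphatase gene, pho-1, expressed in the intestine, fell by 2.85 ± 0.46 (adjusted p = 0.00168) for probe set 175238_s_at and by 1.61 ± 0.33 (adjusted p = 0.0128) for probe set 182487_s_at. The aspartyl protease gene asp-17 read 9.27 ± 0.52 with daf-16 and 11.78 ± 0.57 without it (SD, n = 5), both far above background, and fell by 2.51 ± 0.45 (adjusted p = 0.00404).

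Both acyltransferase homologues in this group had means in the background range with daf-16. oac-20 read 5.61 ± 0.58 with daf-16 and 8.91 ± 0.47 without it (SD, n = 5), and oac-6 read 5.74 ± 0.43 and 8.60 ± 0.49. They fell by 3.30 ± 0.29 (adjusted p = 2.93e-06) and 2.86 ± 0.29 (adjusted p = 1.5e-05). dod-22, reported in earlier work as lowered through daf-16, read 6.81, 7.30, 6.44, 6.67 and 6.69 with daf-16 and 9.92, 9.50, 9.90, 9.64 and 9.10 in its absence. All its arrays were above background, the genotypes did not overlap, and it fell by 2.83 ± 0.30 (adjusted p = 2.12e-05). The gene scpl-1, which encodes a small phosphatase like those acting on RNA polymerase II, fell by 2.67 ± 0.33 (adjusted p = 0.000151). Its other probe set, 178388_at, lay at background in both genotypes and differed by -0.11 ± 0.07 (adjusted p = 0.524). F42A10.7 and Y37D8A.4 fell by 2.66 ± 0.48 (adjusted p = 0.00407) and 2.53 ± 0.50 (adjusted p = 0.0102), and neither was called in the e1370 pair (adjusted p = 0.484 and 0.0549). Another Y37D8A.4 probe set, 181819_s_at, was not called in m577, at -0.80 ± 0.33 (adjusted p = 0.298). For F42A10.7 the difference was -2.16 with the 3' minus 5' signal as a covariate (adjusted p = 0.514).

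A further 16 called probe sets carry several gene symbols, and their changes are not assigned to a single gene. One of these, 184707_s_at, stands for 2 genes and had the largest change of all 404. It read 5.44, 6.03, 5.25, 6.40 and 6.48 with daf-16 and 11.91, 12.53, 10.67, 11.97 and 12.05 in its absence, with genotypes more than 4 log2 units apart. It fell by 5.91 ± 0.29 (adjusted p = 6.79e-10), or 60.1-fold from a mean well above background to one inside the background range. In the other direction 172593_x_at, which stands for 3 genes, rose by 4.34 ± 0.29 (adjusted p = 9.39e-08), and 188587_s_at, which stands for 2 genes, rose by 3.89 ± 0.36 (adjusted p = 4.97e-06).

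The functions behind the calls were described with 54 gene lists, each gene being represented by its brightest probe set on average over the 20 arrays. Of 17118 genes, 322 were called (1.88%), 207 higher (1.21%) and 115 lower (0.672%), with a median difference of 0.02. Of the 322 called genes, 91 were in a list and 231 in none. The counts and medians of lists below are to be read beside these values and are descriptions with no test of a list. Of 89 called probe sets of leading genes and list members, those of clec-174, cth-1, cyp-34A9, cyp-35B2, dhs-12, elo-2, fat-6, gst-4, gst-18, gst-38, lbp-7, lipl-2, nhr-55, nhr-63, nhr-79, nhx-2, pgp-10, pho-7, pho-9, pho-13, ptr-15, rab-3, ssp-19, ttr-5, ttr-44, ugt-9 and ugt-11 were lost without at least 1 of the 20 arrays. With the 3' minus 5' signal as a covariate 65 of the 89 were lost, and with the number in the alternative sample names as a block 51 were, so that 22 passed in both fits. The alternative numbers were 3, 5, 6, 7 and 8 in daf-2(m577) and 1, 2, 3, 4 and 5 without daf-16. The m577 genotypes thus shared only 3 and 5, and the arrays numbered 7 and 8 matched no other array. Those arrays add nothing to the contrast in the block fit, and whether its lost calls reflect this layout was not tested. The differences of the lost calls were 0.428 to 1.41 times the reported ones with the covariate (median 0.975) and 0.607 to 1.37 times with the block (median 0.98). One group of genes was listed because earlier work reports that daf-16 raises them, and another because it lowers them. Knowledge from arrays such as these went into both, so their direction is not independent evidence. Of 18 measured genes reported as raised, 8 were called higher and none lower, with a median of 1.28. In the e1370 pair 12 of the same genes were called higher (background 2.66%). Of 11 measured genes reported as lowered, 4 were called lower, namely dod-22, dod-24, dod-17 and dod-23. dod-24, which encodes a protein with a CUB-like domain, fell by 2.15 ± 0.34 (adjusted p = 0.00151). dod-17 fell by 2.13 ± 0.36 (adjusted p = 0.00233) and dod-23 by 1.54 ± 0.23 (adjusted p = 0.000794). dod-24 and dod-17 were not called with the 3' minus 5' signal as a covariate (adjusted p = 0.296 and 0.106) or with the alternative-name block (adjusted p = 0.103 and 0.213), and dod-22 and dod-23 were called in both fits.

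**Figure D4:**
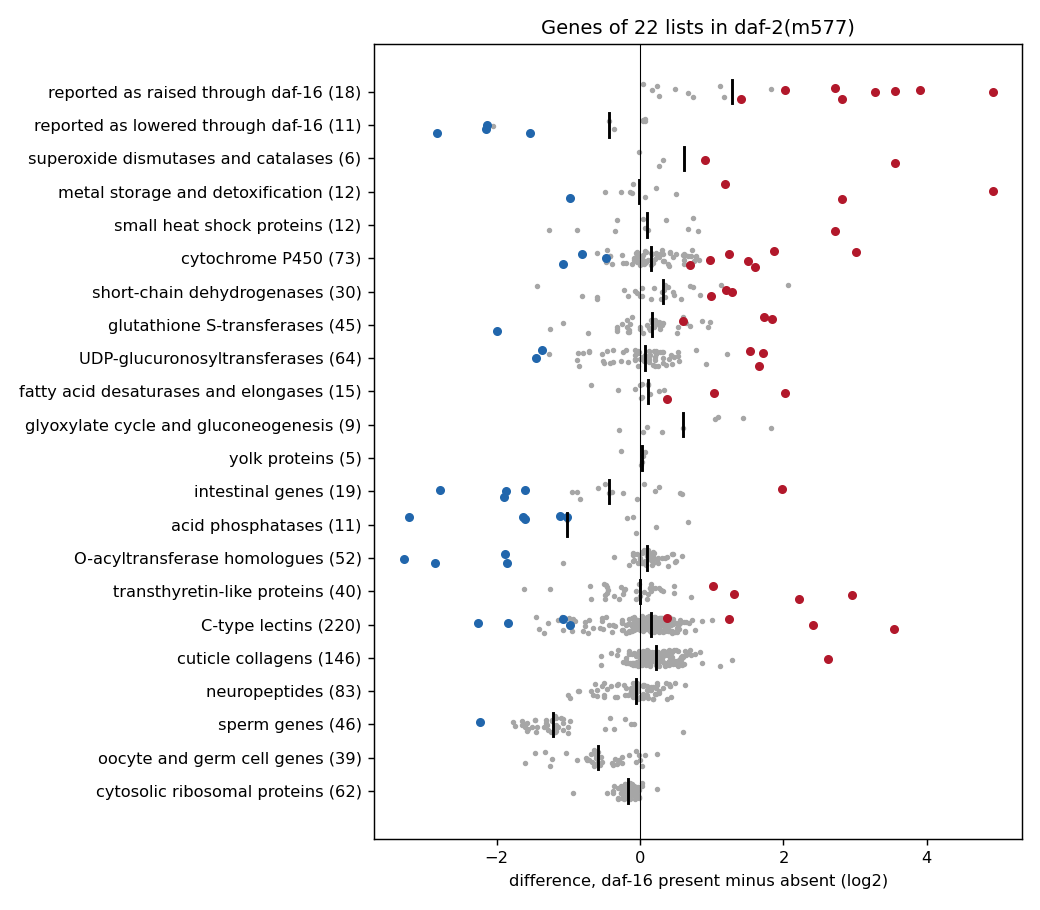
Differences (log2, daf-16 present minus absent) of the measured genes of 22 lists in daf-2(m577), 1 point per gene. Red points are called higher and blue points lower at a limma adjusted p under 0.05 over all probe sets, grey points are not called, and black ticks are list medians. The number of measured genes is given beside each name, and most points of most lists lie near 0.

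Within the insulin pathway itself, 1 of 11 genes was called by its representative probe set. This was akt-2, one of a pair of AKT kinases that act on DAF-16, which rose by 1.50 ± 0.30 (adjusted p = 0.0116). The akt-2 call was lost with the 3' minus 5' signal as a covariate (adjusted p = 0.309) and with the alternative-name block (adjusted p = 0.129). It was also lost with sperm and oocyte gene levels as covariates (adjusted p = 0.076). The partner kinase gene akt-1 differed by 1.17 ± 0.36 (adjusted p = 0.123) for the representative probe set and by 2.44 ± 0.56 (adjusted p = 0.031) for 194058_s_at, which was called. The kinase gene pdk-1, whose product activates AKT, differed by 1.05 ± 0.33 (adjusted p = 0.139) for the representative probe set and by 1.16 ± 0.19 (adjusted p = 0.00212) for 175950_s_at, which was called and read near background without daf-16. The remaining pdk-1 probe sets were not called and differed by 0.42 ± 0.26, 0.22 ± 0.16 and 0.39 ± 0.13 (adjusted p = 0.495, 0.567 and 0.147). The related kinase gene sgk-1 differed by -0.80 ± 0.31 (adjusted p = 0.26), and the phosphatase gene daf-18, which opposes the pathway, by -0.68 ± 0.70 (adjusted p = 0.679). Among 24 genes for insulin-like peptides, ins-35 was called, with 8.57 ± 0.25 with daf-16 and 6.77 ± 0.17 without it (SD, n = 5), a rise of 1.80 ± 0.35 (adjusted p = 0.00849). ins-7, which encodes a peptide that activates DAF-2, was lower on all 5 arrays with daf-16 but was not called, at -2.06 ± 0.54 (adjusted p = 0.0659).

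Genes that handle reactive oxygen and metals were mixed. Of 6 superoxide dismutase and catalase genes, sod-3 and sod-1 were called higher. sod-1, the cytosolic copper and zinc enzyme, was highly expressed in both genotypes, at 12.66 ± 0.17 and 11.75 ± 0.14 (SD, n = 5), and rose by 0.91 ± 0.12 (adjusted p = 0.000371). sod-5, another cytosolic enzyme, differed by 0.92 ± 0.41 (adjusted p = 0.342), and sod-2, sod-4 and ctl-2 by 0.32, -0.02 and 0.26. The catalase genes ctl-1 and ctl-3 share probe set 188587_s_at and are therefore not among the 6. That probe set rose by 3.89 ± 0.36 (adjusted p = 4.97e-06), and the genes cannot be told apart in it. None of 22 peroxiredoxin, thioredoxin and glutathione peroxidase genes was called.

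Metal storage and detoxification genes had 3 called higher and 1 lower of 12. Besides ftn-1, the metallothionein gene mtl-1 rose from 9.88 ± 0.66 to 12.70 ± 0.28 (SD, n = 5), by 2.82 ± 0.43 (adjusted p = 0.00106). The mtl-1 call was lost with the 3' minus 5' signal as a covariate (adjusted p = 0.113) and with the alternative-name block (adjusted p = 0.0668). It was also lost with sperm and oocyte gene levels as covariates (adjusted p = 0.0744). The second metallothionein gene, mtl-2, differed by -0.49 ± 0.13 (adjusted p = 0.066), and the second ferritin gene, ftn-2, by -0.14 ± 0.15 (adjusted p = 0.681). Of the cadmium-responsive genes, cdr-2 rose by 1.19 ± 0.17 (adjusted p = 0.000709) and cdr-1 fell by 0.98 ± 0.18 (adjusted p = 0.00497), in opposite directions.

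Few chaperone genes were called. Of 12 small heat shock genes, hsp-12.3 was called higher, with a rise from 7.39 ± 0.30 to 10.11 ± 0.57 (SD, n = 5), by 2.72 ± 0.37 (adjusted p = 0.000371). hsp-12.6 differed by 0.73 ± 0.54 (adjusted p = 0.567) and was near background. hsp-16.2, known for its response to heat, differed by 0.67 ± 0.51 (adjusted p = 0.576). None of 13 larger chaperone genes was called, and their median was -0.18.

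Enzymes that modify foreign and lipophilic molecules were called in both directions. Of 73 cytochrome P450 genes, 7 were called higher and 3 lower, with a median of 0.15. cyp-35B1 rose from 6.64 ± 0.30 to 9.66 ± 0.42 (SD, n = 5), by 3.01 ± 0.36 (adjusted p = 9.65e-05), and cyp-34A8 rose by 1.87 ± 0.31 (adjusted p = 0.00205). The higher calls ranged from 4 to 9 when single arrays were left out and numbered 1 with the 3' minus 5' signal as a covariate. Of 30 short-chain dehydrogenase genes, dhs-9, dhs-20 and dhs-12 were called higher. dhs-20 rose by 1.2 ± 0.19 (adjusted p = 0.00111) and dhs-9 by 1.28 ± 0.26 (adjusted p = 0.0131), and the list median was 0.32.

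The conjugating enzymes went both ways. Glutathione S-transferase genes had 3 called higher and 1 lower of 45. gst-4, a widely used reporter gene of oxidative stress, rose by 1.85 ± 0.44 (adjusted p = 0.0345), gst-29 rose by 1.73 ± 0.29 (adjusted p = 0.00212), and gst-38 fell by 1.99 ± 0.43 (adjusted p = 0.0185). UDP-glucuronosyltransferase genes had 3 called higher and 2 lower of 64. ugt-41 rose by 1.66 ± 0.33 (adjusted p = 0.01), ugt-27 by 1.71 ± 0.24 (adjusted p = 0.000502), and ugt-9 fell by 1.45 ± 0.34 (adjusted p = 0.0316). The lower UDP-glucuronosyltransferase calls ranged from 0 to 3 when single arrays were left out. Of 55 ABC transporter genes 1 was called, pgp-10, by 0.53 ± 0.12, and of 13 aldehyde dehydrogenase genes none was called.

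Most called lipid genes rose. Of desaturase and elongase genes 20% were called and of lysosomal lipase genes 25%, against 1.88% of all genes. The desaturases fat-5 and fat-6, which make monounsaturated fatty acids, rose by 2.03 ± 0.41 (adjusted p = 0.0129) and 0.37 ± 0.09 (adjusted p = 0.0296), and the elongase gene elo-2 rose by 1.03 ± 0.24 (adjusted p = 0.0316), out of 15 desaturase and elongase genes. fat-6 was among the most abundant transcripts of this group, at 12.87 ± 0.13 with daf-16 and 12.50 ± 0.02 without it (SD, n = 5). When single arrays were left out, 1 to 3 of the group were called. Of 8 lysosomal lipase genes, lipl-4 and lipl-2 rose by 2.02 ± 0.25 (adjusted p = 0.000151) and 1.27 ± 0.31 (adjusted p = 0.0394). Without daf-16, lipl-4 was at background. With the 3' minus 5' signal as a covariate fat-5, fat-6, elo-2, lipl-4 and lipl-2 lost their calls. Their adjusted p-values there were, in that order, 0.583, 0.222, 0.691, 0.0746 and 0.609.

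Among carriers of fatty acids, far-3 rose from 10.75 ± 0.39 to 12.93 ± 0.19 (SD, n = 5), by 2.18 ± 0.27 (adjusted p = 0.000148). lbp-7 fell by 2.29 ± 0.55 (adjusted p = 0.0375), a call that was lost without any 1 of the 10 m577 arrays. Of 61 genes for fatty acid activation and beta-oxidation, hacd-1, a hydroxyacyl-CoA dehydrogenase, was called. It rose from 9.37 ± 0.41 to 12.18 ± 0.15 (SD, n = 5), by 2.81 ± 0.32 (adjusted p = 6.6e-05). The 5 yolk protein genes vit-1, vit-2, vit-4, vit-5 and vit-6 differed by -0.27, 0.07, 0.01, 0.03 and 0.03, and none was called, at levels from 12.61 to 13.91 near the top of the scale. Further vit-4 probe sets, also not called, differed by -0.01 for 172134_x_at and by 2.58 ± 1.14 (adjusted p = 0.337) for 172673_x_at. The latter had means of 12.42 with daf-16 and 9.84 without it.

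In carbohydrate metabolism few genes were called. Of the 9 glyoxylate cycle and gluconeogenesis genes none was called, while their median was 0.60 and 4 had all daf-2(m577) arrays above all others (6.56% of genes do not overlap in either direction). These were icl-1, the enzyme that joins both glyoxylate cycle activities in the worm, at 1.83 ± 0.57 (adjusted p = 0.133), pck-1 at 1.43 ± 0.43 (adjusted p = 0.12), pck-2 at 1.09 ± 0.29 (adjusted p = 0.0715) and mdh-1 at 0.60 ± 0.17 (adjusted p = 0.0994). With single arrays left out, 0 to 3 of the genes were called. In glycolysis aldo-2, an aldolase, was called of 16 genes and rose by 0.60 ± 0.12 (adjusted p = 0.0142). None of 14 trehalose and glycogen genes and none of 5 tyrosine degradation genes was called. In the methionine group cth-1, a cystathionine gamma-lyase, was called of 14 genes and fell by 1.62 ± 0.39 (adjusted p = 0.0368).

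In families of secreted and defence proteins, few members were called. Of 220 C-type lectin genes 4 were called higher and 4 lower (3.64% called). clec-76 rose by 2.42 ± 0.33 (adjusted p = 0.000407) from background, and clec-4 fell by 1.84 ± 0.38 (adjusted p = 0.0128). None of 16 lysozyme genes was called, and lys-7 differed by 1.16 ± 0.34 (adjusted p = 0.1). Among 18 saposin-like genes spp-13 rose by 2.11 ± 0.31 (adjusted p = 0.000725). Among 40 other defence genes irg-8 fell from 12.40 ± 0.23 to 10.26 ± 0.43 (SD, n = 5), by 2.14 ± 0.30 (adjusted p = 0.000475), and fipr-26 rose by 1.95 ± 0.32 (adjusted p = 0.00212).

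Transthyretin-like genes, which encode small secreted proteins of a nematode family, had 4 called higher of 40 and none lower. ttr-26 read 9.83, 9.90, 8.52, 9.60 and 9.28 with daf-16 and 6.54, 5.87, 6.24, 7.28 and 6.40 in its absence. The genotypes did not overlap, and the rise was 2.96 ± 0.39 (adjusted p = 0.000297). ttr-23 rose by 2.22 ± 0.45 (adjusted p = 0.0112), ttr-5 by 1.32 ± 0.29 (adjusted p = 0.0236) and ttr-44 by 1.01 ± 0.24 (adjusted p = 0.0328). The median of the whole family was -0.01, and with single arrays left out 2 to 4 members were called higher. ttr-26 was the one member called with the 3' minus 5' signal as a covariate and with the alternative-name block. ttr-23, ttr-5 and ttr-44 had adjusted p-values of 0.24, 0.157 and 0.627 with the covariate and 0.0845, 0.179 and 0.0908 with the block.

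The acyltransferase homologues of the oac family went the other way, with 4 lower of 52 and none higher. Besides oac-20 and oac-6, oac-59 fell by 1.89 ± 0.28 (adjusted p = 0.00069) and oac-14 by 1.86 ± 0.34 (adjusted p = 0.00497). The family median was 0.10. At least 4 were called lower when any single array was left out. oac-14 and oac-59 were not called with the 3' minus 5' signal as a covariate (adjusted p = 0.298 and 0.0746) or with the alternative-name block (adjusted p = 0.227 and 0.0619), which left oac-20 and oac-6 called in both fits. Of 23 claudin-like genes clc-1 fell by 1.16 ± 0.23 (adjusted p = 0.00972), in addition to clc-19 and clc-24.

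Acid phosphatases were the list with the highest share of calls, 5 lower of 11 (45.5%, against 0.672% of all genes called lower), and a median of -1.01. pho-9, pho-13 and pho-7 fell by 1.63 ± 0.39 (adjusted p = 0.0366), 1.11 ± 0.26 (adjusted p = 0.0311) and 1.02 ± 0.24 (adjusted p = 0.0372), together with pho-8 and pho-1 above. pho-4 differed by -1.01 ± 0.40 (adjusted p = 0.27), and the highly expressed pho-14 and pho-11 differed by 0.67 and -0.09. The number called was 2 without replicate 3 of daf-2(m577), 2 to 5 over all arrays left out singly, and 1 with the 3' minus 5' signal as a covariate. With the alternative-name block none of the 5 kept its call. There pho-8, pho-1, pho-13, pho-7 and pho-9 had adjusted p-values of 0.0662, 0.13, 0.301, 0.353 and 0.353, with 182487_s_at for pho-1.

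Genes of the intestine, the tissue where DAF-16 is known to act strongly, had 1 called higher and 4 lower of 19, with a median of -0.44. pept-1 was described above. The aquaporin gene aqp-4 fell from 9.51 ± 0.22 to 7.61 ± 0.34 (SD, n = 5), by 1.90 ± 0.28 (adjusted p = 0.000831), and the sodium-proton exchanger gene nhx-2, which drives peptide uptake with pept-1, fell by 1.88 ± 0.41 (adjusted p = 0.0222). The gut esterase gene ges-1 rose from 9.08 ± 0.53 to 11.06 ± 0.40, by 1.98 ± 0.33 (adjusted p = 0.00212). The mean level of the intestinal list was 8.54 to 9.60 in daf-2(m577) and 9.29 to 10.14 without daf-16, and its lowest array was replicate 3 of daf-2(m577). With the 3' minus 5' signal as a covariate none of the intestinal genes was called. With the alternative-name block pept-1, aqp-4, nhx-2, ges-1 and pho-1, also in this list, lost their calls (adjusted p = 0.141, 0.0786, 0.274, 0.0771 and 0.13).

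Genes of other tissues gave few calls. None of 16 body wall muscle genes and none of 12 pharynx genes was called. In 16 neuron genes rab-3 was called, by 0.57 ± 0.12 (adjusted p = 0.0201), while its other probe set differed by -0.79 ± 0.43 (adjusted p = 0.446). None of 83 neuropeptide genes was called. Of 146 cuticle collagen genes col-183 rose by 2.63 ± 0.52 (adjusted p = 0.00972), and its values in daf-2(m577) spread widely, at 8.86 ± 1.42 (SD, n = 5). Of 255 nuclear hormone receptor genes 1 was called higher and 3 lower, all by less than 1. None of 22 autophagy genes, 18 V-ATPase genes, 33 proteasome genes, 26 histone genes or 48 respiratory chain genes was called.

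Germ line genes were expressed in both strains, although glp-4(bn2) animals are sterile at the restrictive temperature. Of 46 sperm genes 42 had means above background in both genotypes, and all of 39 oocyte and germ cell genes did. Sperm genes had a median difference of -1.21 against 0.02 for all genes, and 28 of 46 were lower on all daf-2(m577) arrays, where 6.56% of all genes do not overlap in either direction. Of the sperm genes 1 was called, ssp-19, by -2.23 ± 0.52 (adjusted p = 0.0315). Their mean level on each array was 10.90, 10.48, 7.79, 10.64 and 10.85 with daf-16 and 11.56, 11.06, 11.43, 11.22 and 11.21 in its absence. Without replicate 3 of daf-2(m577) the median was -0.51 and ssp-19 was not called. Oocyte and germ cell genes had a median of -0.59, with -1.0 when replicate 3 was left out, and none was called. With the sperm and oocyte gene levels of each array as covariates 248 probe sets were called in the m577 comparison, of which 193 were among the 404.

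Ribosomal protein genes had small differences, none of them called. Of 62 cytosolic ribosomal protein genes none was called, 59 differed in the negative direction, and the median was -0.17. The median for 58 mitochondrial ribosomal protein genes was -0.28, none was called, and it was 0.16 with the 3' minus 5' signal as a covariate.

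The share of genes called differed between chromosomes, which is a description with no test. Of genes measured on a chromosome, 2.45% were called on V, 2.38% on X, 2.16% on IV, 1.69% on II, 1.46% on III and 1.17% on I. In the RefSeq gene order of assembly WBcel235 there were 13 runs of neighbouring genes called in the same direction, 9 higher and 4 lower. The longest held 3 genes of chromosome X, F46C8.8, PDB1.1 and F08C6.5, which rose by 0.62 ± 0.14, 1.98 ± 0.26 and 1.57 ± 0.21. The neighbouring D1086.2 and D1086.1, named outside the rule given below, rose by 1.69 ± 0.34 and 2.38 ± 0.34. The pairs cyp-34A8 with cyp-34A9 and cyp-35B1 with cyp-35B2 rose together. C32H11.3 and C32H11.4 fell by 0.80 ± 0.19 and 2.14 ± 0.39, and F19C7.2 and F19C7.4 by 1.87 ± 0.18 and 1.02 ± 0.18. Neighbouring genes of 1 family can share probes, so a run need not stand for separate measurements.

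The same genotypes with the allele e1370 gave a separate set of 10 arrays, which were normalized jointly with the others and entered the same fit. Both comparisons use the same estimate of spread for a probe set, so their calls are not independent. In the e1370 pair 987 probe sets were called (4.38%, with 2.4% higher), and 4.81% of genes. Of the 404 called in m577, 275 were called in e1370 as well, which is 68.1% of the m577 calls and 27.9% of the e1370 calls, and none was called in opposite directions. Among the 275 the difference was larger in e1370 for 198 and in m577 for 77, with median absolute differences of 1.94 and 1.53. The other 129 were called in m577 and not in e1370, and 106 of them had the same sign there. In the opposite view, 932 of the 987 e1370 calls had the same sign in m577.

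A call in one allele and not in the other does not show a difference, so the difference between the alleles was tested directly. It was called for 40 probe sets (0.177%; 0.0798% with a higher value in m577, and 0.0701% of genes), and 12 of these were also called in m577. Of the 12, 9 differed less in m577 than in e1370 with the same sign, 1 differed more and 2 had opposite signs. F47B8.2 and spi-2 were chosen after their values were seen. F47B8.2 rose by 1.74 ± 0.16 in m577 and by 3.98 ± 0.16 in e1370 (difference -2.24 ± 0.23, adjusted p = 6.68e-05). spi-2, which encodes a serine protease inhibitor, rose by 2.20 ± 0.22 in m577 and 4.32 ± 0.22 in e1370 (difference -2.12 ± 0.31, adjusted p = 0.00414). dod-24 differed by -2.15 ± 0.34 in m577 and -5.27 ± 0.34 in e1370 (difference 3.12 ± 0.49, adjusted p = 0.00636).

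Of the 12 genes with the largest allele differences among those called in that test, 6 in each direction, C32H11.4, dod-24 and C17H12.6 were called in m577 and the other 9 were not. ilys-5, an invertebrate-type lysozyme gene, differed by -0.16 ± 0.24 in m577 and -5.91 ± 0.24 in e1370 (difference 5.76 ± 0.35, adjusted p = 5.36e-08), with levels of 12.49 and 12.65 in m577. C32H11.4 differed by -2.14 ± 0.39 in m577 and -6.32 ± 0.39 in e1370, and irg-5 by -0.45 ± 0.35 and -4.37 ± 0.35. On the other side, cdr-3 differed by 0.50 ± 0.29 in m577, where both genotypes were near background, and by 4.29 ± 0.29 in e1370 (difference -3.78 ± 0.40, adjusted p = 0.000113). dod-3, reported in earlier work as raised through daf-16, differed by 1.12 ± 0.36 in m577 and by 3.85 ± 0.36 in e1370, and gst-3 by 0.70 ± 0.27 and 3.35 ± 0.27. The others of the 12 were C17H12.6, C17H12.8, far-7, F40G12.5, cyp-13B1 and dod-24. The count of 40 ranged from 24 to 71 when single arrays were left out.

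**Figure D5:**
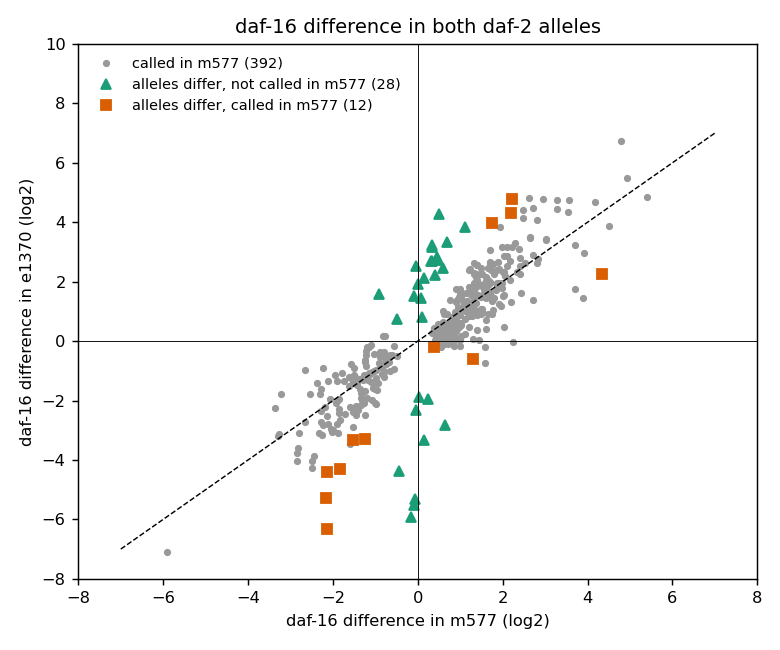
The daf-16 difference (log2, daf-16 present minus absent) in e1370 against that in m577, with 1 point per probe set. Grey points are called in m577 and not in the test between alleles, orange squares are the 12 called in both tests, green triangles the 28 called between alleles and not in m577, and the dashed line marks equal differences. Most grey points share their sign in both alleles, and the green triangles lie near 0 on the m577 axis.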

How the data were processed

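Whole-animal RNA was hybridised to Affymetrix C. elegans whole-genome arrays, with 4 genotypes and 5 biological replicates of each. Images were read, per the labels, in Microarray Suite 5.0 and all 20 arrays were normalized jointly by RMA in R with version 1.4.14 of the Affymetrix package. The authors deposited log2 values, a scale read here from their range of 4.06 to 14.27.

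Here 77 control probe sets were left out of 22625 and 22548 were tested under R 4.3.3 by limma 3.58.1, using lmFit, contrasts.fit and eBayes, with 1 mean per genotype and 2-sided p-values adjusted by Benjamini-Hochberg within a comparison. Per the platform annotation 20766 probe sets had 1 symbol, 887 several and 895 none. 20701 symbols were matched to RefSeq by gene identifier. Background was taken from 15 Bacillus probe sets for dap, lys and trp (single values 4.21 to 6.29, median 4.57). The number of arrays limits the precision. Genes were named by this rule: the mutated genes; the 12 largest rises and the 12 largest falls without overlap of arrays; up to 4 called members of a list, or the 2 largest where none was called; any member of a list of at most 12 genes; the 6 largest allele differences in each direction; and members of the longest neighbour runs. Genes named outside the rule are said to be so. The comparison, members and lists were chosen with earlier results of these data known. Title numbers were not used to pair the m577 arrays. Deviations of same-numbered arrays correlated from -0.54 to 0.38 across probe sets, which cannot show whether arrays shared a source. The script was tested on simulated data. Sequences were not used here, and figures were drawn with matplotlib 3.10.9.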

Additional observations from a re-analysis of the deposited data

Results flagged for a closer look

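Single arrays stood apart from the other 4 of their genotype in 6 of 60 groups of 5 arrays examined, where chance alone flags about 1 group in 20. The gap to the nearest array exceeded 0.71 of the whole range in each. The 3' minus 5' signal of control transcripts was 2.3153 on replicate 1 of daf-16(mgDf50); daf-2(m577), the highest of its genotype. The mean level of sperm genes was 7.794 on replicate 3 of daf-2(m577), the lowest of its genotype.

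On replicate 3 of daf-2(m577), sod-3 was also the lowest, at 9.725, and scpl-1 the highest, at 6.895. On replicate 5 of daf-16(mgDf50); daf-2(m577), D1086.9 was the highest at 6.23 and scl-20 the highest at 6.95. All 4 genes kept their call when that array was left out. Among the 24 genes with the largest rises and falls, 0 were called in the test of the difference between alleles, by limma. That test called 0.177% of all probe sets.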

How the results depend on the processing

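Against 404 calls, the m577 comparison gave 6645 with array quality weights, 780 with only its 2 genotypes in the fit, 180 in a test against a 1.2-fold change and 248 with sperm and oocyte gene levels as covariates. It gave 105 with the number in each alternative sample name as a replicate block and 58 with the 3' minus 5' signal as a covariate, and 257 to 527 when single arrays were left out. The test between alleles, 40 calls, gave 1113, 24, 92, 6 and 16 under weights, the 1.2-fold test, sperm and oocyte levels, the alternative-name block and the 3' minus 5' signal. It gave 24 to 71 when single arrays were left out and 71 without replicates 1 and 3 of daf-2(m577), an alternative chosen after seeing the data. Counts moved by over 1.5 times without daf-2(e1370) replicate 5 (71), daf-2(m577) replicates 4 (25) and 5 (26), daf-16(mgDf50); daf-2(e1370) replicates 2 (67), 3 (25) and 4 (25), or daf-16(mgDf50); daf-2(m577) replicates 2 (24), 3 (24) and 4 (26). The sources used here do not say what the alternative names stand for, and the title numbers share only a number, so the replicate block of the titles, with 391 calls, and the check of pairing say nothing of a shared source. In the alternative-name block the m577 genotypes share only the numbers 3 and 5. With 2 genotypes the spread is estimated from 10 arrays. The cause of the other changes was not tested.

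Higher and lower calls numbered 255 and 151 after centring each array, 313 and 176 after cyclic loess, 260 and 141 without dim probe sets and 241 and 121 with an intensity trend. Dim probe sets were those with both m577 means at or below 5.19, the highest mean of a Bacillus control. That limit lies below 6.29, and 19391 probe sets were kept. Without the 3 arrays of low sperm gene level, chosen after seeing the data, 347 were called, 259 higher and 88 lower. No direction was reversed among 89 named called probe sets over 34 settings, and 21 stayed called in all. Of the 24 largest changes, 14 stayed called in all. Among these 24, pho-8, pho-1, pept-1, F42A10.7 and asp-17 lost their call with the alternative-name block. clec-61, dod-6, F13D11.4, pho-1, pept-1, scpl-1, F42A10.7, Y37D8A.4 and asp-17 lost it with the 3' minus 5' signal, at differences of 2.71, 2.55, 2.62, -2.67, -3.26, -2.33, -2.16, -2.81 and -2.94. The call of 27 of the 89 was lost without at least 1 array. The promoter motif search and its window were not run, as promoter sequences were not used here, and the fit of 2 genotypes cannot be made for the test between alleles. Signal over background limits the size of differences that involve a mean at or below 6.29.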

Other observations

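Of the 322 called genes, 231 were in none of the lists, and the following were chosen after their values were seen. lea-1, which encodes a late embryogenesis abundant protein tied to survival of drying, rose by 2.65 ± 0.62 and 2.1 ± 0.46 on its 2 called probe sets (adjusted p = 0.0316 and 0.021). sqrd-1, a mitochondrial enzyme that oxidises hydrogen sulfide, rose by 2.52 ± 0.34 (adjusted p = 0.000371). plin-1, the perilipin on lipid droplets, rose by 1.76 ± 0.30 (adjusted p = 0.00265) and 1.74 ± 0.40 (adjusted p = 0.0315) on its 2 called probe sets. pnk-1, a pantothenate kinase that starts coenzyme A synthesis, rose by 1.92 ± 0.26 (adjusted p = 0.0003). aman-1, an alpha-mannosidase, rose by 1.96 ± 0.49 (adjusted p = 0.0461), with arrays that overlapped.

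Genes outside the lists also fell. fmo-1, a flavin-containing monooxygenase, fell by 2.24 ± 0.23 (adjusted p = 1.38e-05) and 1.24 ± 0.27 (adjusted p = 0.0205) on its 2 called probe sets. fbl-1, the fibulin of basement membranes, fell by 2.19 ± 0.30 (adjusted p = 0.000416). ent-4, a nucleoside transporter gene, fell by 2.12 ± 0.34 (adjusted p = 0.00139). gly-13, an enzyme of N-glycan synthesis, fell by 2.13 ± 0.37 (adjusted p = 0.00333). The test between alleles, which called 0.177% of all probe sets, called none of these genes. Of the 322 called genes, 120 carry only a sequence name in the annotation used here.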
